A study of Macaca mulatta with 12 samples.

Results

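Histone deacetylases remove acetyl groups from lysines of histones and other proteins. The zinc-dependent enzymes HDAC1 to HDAC10, the family members asked about here, were looked up by symbol or Ensembl identifier in a count table of rhesus macaque (Macaca mulatta) blood macrophages. Of these 10 genes, 9 were found among the 32386 genes of the table, and HDAC8 was not matched to a row and is not analysed here. The libraries come from cells sorted as CD14+CD16-CD163+ from the blood of macaques that had been given back their own CRISPR/Cas9-treated, mobilized CD34+ cells, a model of clonal hematopoiesis for which the title names TET2-mutant cells. The early unstimulated and early stimulated groups were sorted 4.5 months after transplant, and the late unstimulated and late stimulated groups 19 months after it. Sorted cells were plated at 250000 per well and left for 8 h unstimulated (labelled CTL) or stimulated (labelled ACT). Stimulation was lipopolysaccharide (LPS) at 100 ng/ml plus interferon-gamma at 20 ng/ml by the protocol, although the treatment label of those libraries mentions LPS alone. Each of the 4 groups has 3 libraries, and all groups carry the transplant and the editing, so none of them is an unedited control. The labels give no animal, age, strain, share of edited cells or sequencing date. Replicates may therefore be wells rather than animals, so a p-value here reflects the spread of these libraries, which may be technical, and time cannot be told apart from a batch that went with it.

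Class I enzymes (HDAC1, HDAC2 and HDAC3) are nuclear and work as the catalytic subunits of corepressor complexes: HDAC1 and HDAC2 in SIN3, NuRD, CoREST and MiDAC, HDAC3 in the NCoR complex. Class IIa proteins (HDAC4, HDAC5, HDAC7 and HDAC9) have little activity of their own on acetyl-lysine, bind MEF2 transcription factors, and leave the nucleus when kinases phosphorylate them. Class IIb holds HDAC6, a cytoplasmic enzyme that deacetylates tubulin, and HDAC10, which acts on acetylated polyamines. In mouse myeloid cells TET2 is known to recruit HDAC2 to the Il6 gene, with the NF-kB cofactor encoded by Nfkbiz, when inflammation is resolved.

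Totals ran from 3910680 to 12972505 counts per library. Early stimulated replicate 1 lay far from its group on the second principal component, at -61.46 where replicates 2 and 3 were at 1.49 and 1.79. The sort markers CD14 (1454 to 2562 CPM as group means) and CD163 (545.6 to 1314 CPM) were present in every group. The CD14 monocyte and macrophage list as a whole (8 genes) summed to between 9214 and 10770 CPM in each early library and between 5724 and 6675 CPM in each late one. Within this list MRC1 went the other way, at low levels (group means of 1.47 to 1.52 CPM early, 2.27 to 3.29 late). NK cell markers (5 genes) were at 51.4 to 75.3 CPM early and 42.7 to 52.5 CPM late. Of these NCAM1 was lower late (group means of 49.85 to 50.66 CPM early, 34.19 to 36.99 late). NCR1 did not fall (8.77 to 10.78 CPM early, 9.34 to 11.02 late), and KLRD1, NKG7 and KLRF1 had means at or under 0.434 CPM. B cell markers (6 genes) went from 9.41 to 12.6 down to 6.31 to 9.63 CPM through BANK1, while MS4A1 had higher means late (1.95 to 2.46 CPM early, 2.62 to 3.28 late). Dendritic cell markers (6 genes) spanned 54.4 to 78.2 CPM. Summed T cell markers (6 genes, 1.51 to 8.91 CPM per library) and platelet and erythroid markers (5 genes, 1.11 to 3.31 CPM, with HBA1 at 0 throughout) were near the bottom of the range. Neutrophil markers (7 genes, summed) ranged over 646.5 to 755 CPM at 4.5 months and 321 to 416 CPM at 19 months, mostly from CSF3R, which monocytes also express, and CAMP. The granule and surface markers MMP8, LTF, ELANE and CEACAM8 had higher group means late, all at or under 2.86 CPM, and of 5 neutrophil markers tested 2 were higher and 2 lower late in unstimulated cells. Summed CD16 monocyte markers (4 genes) were 273 to 331 CPM early and 165 to 212 CPM late, a drop that was LILRB1 (group means of 252 to 285 CPM early, 135 to 152 late), while FCGR3, which encodes CD16, was at 36.1 to 39.0 CPM early and 40.8 to 43.3 late. The part of these shifts in the results below was not tested, and in bulk RNA fewer cells of a type and less RNA per cell cannot be told apart. Levels are CPM (counts scaled to a common library total), with totals adjusted by the trimmed mean of M-values (TMM). They are not corrected for transcript length, so they are compared between libraries and not between genes.

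Between 4.5 and 19 months the family was reordered in unstimulated macrophages: HDAC2 and HDAC9 rose, while HDAC3, HDAC4, HDAC5 and HDAC7 fell. The fall of HDAC7 was 4.87-fold, and the other 5 changes lay between 1.54-fold and 2.17-fold. In stimulated cells 8 of the 9 genes moved, HDAC1 and HDAC6 also being lower late. Both were below 0 in unstimulated cells too (-0.262 and -0.405). A test of their late change between the states did not pass (adjusted p = 0.81 and 0.769, edgeR quasi-likelihood test). A gene was called at an adjusted p under 0.05 (edgeR quasi-likelihood test, Benjamini-Hochberg over 11826 genes). In unstimulated cells 6 of 9 members passed, 2 higher and 4 lower, where 40.7% of all genes tested passed, 20.9% higher and 19.8% lower. In stimulated cells 8 of 9 passed, 2 higher and 6 lower, against a background of 38.8%, 19.1% higher and 19.7% lower. The median log2 fold change of the 9 members was -0.45 unstimulated and -0.73 stimulated, beside 0.02 and 0.05 over all genes tested. The unstimulated median is the value of HDAC10, which has few counts, and it was -0.95 without late unstimulated replicate 2 and -0.29 without replicate 3 of that group. Of all calls in unstimulated cells 51.3% were higher late, and 63.3% with upper-quartile scaling. In stimulated cells these shares were 49.3% and 61.0%. DESeq2, run with no low-count filter on 26369 genes, gave 64.5% unstimulated and 58.5% stimulated. On as many genes edgeR with no filter gave 61.2% and 57.4%. Late and early libraries did not overlap for 6 of 9 members in unstimulated cells, where 52.8% of genes tested were apart in this way. With stimulation 8 of 9 members were apart, against 50.4% of genes tested. The members apart were those called in each state, so the separation is no separate support for the calls.

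**Figure D1:**
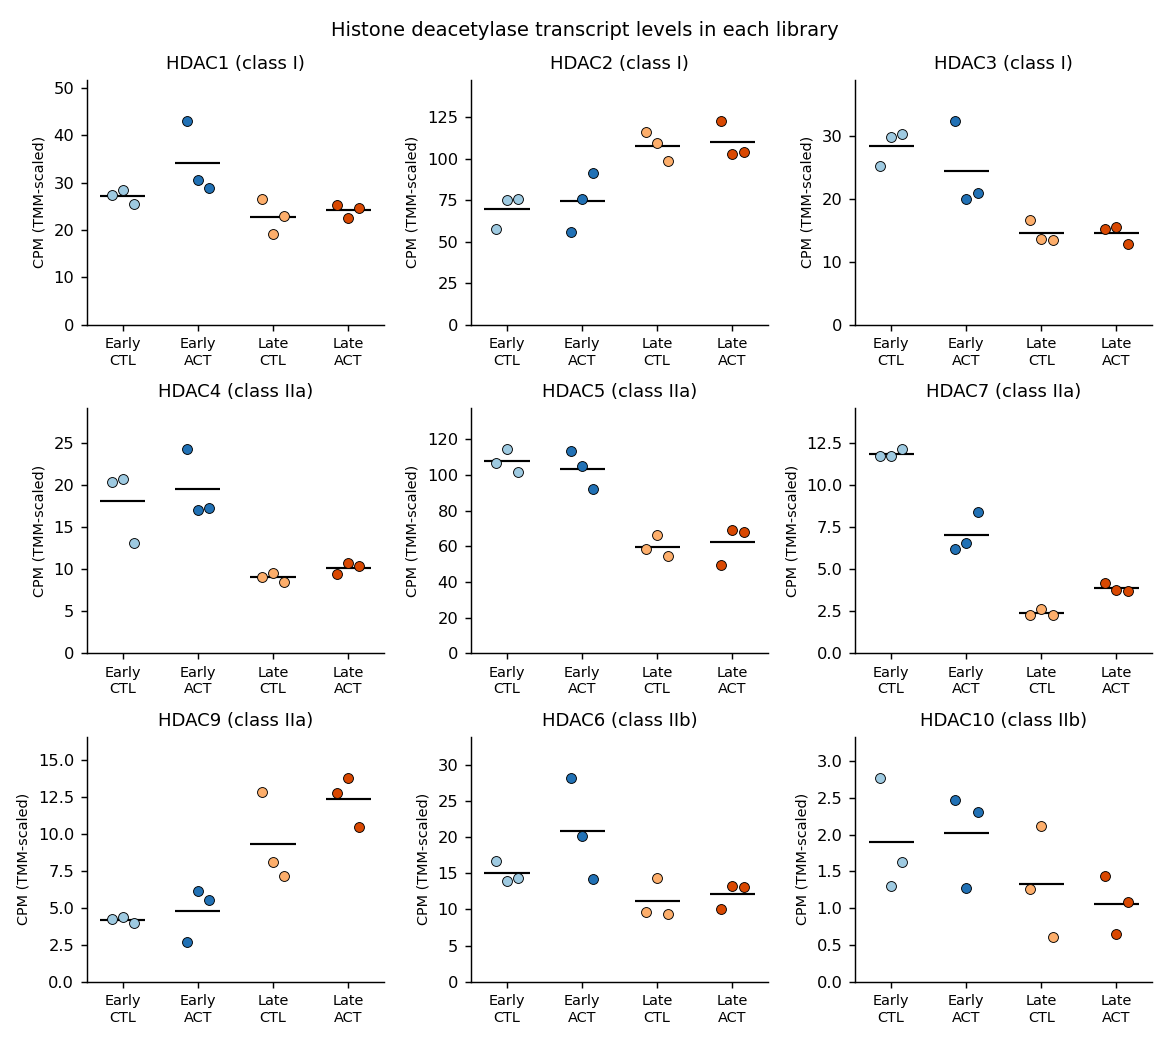
Level of each of the 9 genes in every library, in TMM-scaled CPM from 0 on the vertical axis, with 1 point per library and a line at the group mean of 3 libraries. The late libraries lie above all early ones for HDAC2 and HDAC9 and below all of them for HDAC3, HDAC4, HDAC5 and HDAC7.

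Within class I, HDAC2 and HDAC3 moved in opposite directions. HDAC2, the partner of TET2 at Il6, was at 57.7, 75.3 and 75.9 CPM at 4.5 months without stimulation and 56.0, 75.9 and 91.4 with it, then 116, 109.5 and 98.5 at 19 months without and 123, 103 and 104 CPM with it. All 6 late libraries were above all 6 early ones. The late rise was 0.63 ± 0.15 on the log2 scale (SE, adjusted p = 0.00186) unstimulated and 0.55 ± 0.15 (adjusted p = 0.00566) stimulated. HDAC3, the enzyme of the NCoR complex, was at 25.3, 29.9 and 30.3 CPM at 4.5 months without stimulation and 32.4, 20.0 and 20.9 with it, then 16.6, 13.7 and 13.5 at 19 months without and 15.3, 15.5 and 12.9 CPM with it. Again the early and late libraries did not overlap, and the highest value was that of the library that stood apart. HDAC3 was lower late by a log2 fold change of -0.98 ± 0.19 (adjusted p = 0.000231) unstimulated and -0.71 ± 0.19 (adjusted p = 0.00446) stimulated.

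HDAC1, the close paralog of HDAC2, had the smallest late against early differences of the class I genes. It stood at 27.3, 28.5 and 25.5 CPM at 4.5 months without stimulation and 43.1, 30.5 and 28.8 with it, then 26.5, 19.1 and 22.9 at 19 months without and 25.2, 22.6 and 24.7 CPM with it. The unstimulated groups overlapped and the late difference did not pass (-0.26 ± 0.17, adjusted p = 0.235). In stimulated cells HDAC1 was lower late (-0.47 ± 0.17, adjusted p = 0.0273), but 6 of 20 alternatives lost this call, with adjusted p from 0.0524 to 0.106. These were upper-quartile scaling, thinning to equal depth, a fit of the 2 stimulated groups alone, and the fits without early stimulated replicate 1 (-0.32) or late stimulated replicate 2 or 3.

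The balance inside class I differed between the times. Counts of HDAC2 were 1.30 to 3.17 times those of HDAC1 in the 6 early libraries (median 2.57) and 4.23 to 5.74 times in the 6 late ones (median 4.46). The ratio of HDAC2 to HDAC3 went from 1.73 to 4.37 (median 2.51) early to 6.61 to 8.11 (median 7.66) late. Neither ratio overlapped between the times. These ratios were chosen after the values were seen and are a description with no test. They need no scaling between libraries, but they hold the lengths of the genes, so only their change between libraries can be read. How the authors' counting treated reads that fit both HDAC1 and HDAC2 is not given in the sources used here.

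**Figure D2:**
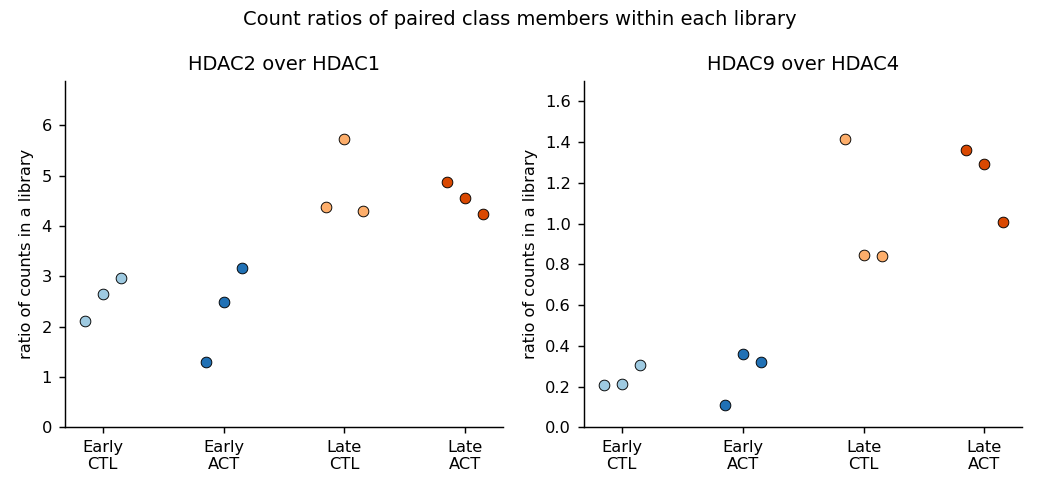
Ratio of the counts of HDAC2 to HDAC1 and of HDAC9 to HDAC4 within each library (vertical axis, no unit), 1 point per library, by group. For both pairs the 6 late libraries lie above the 6 early ones, from 4.23 up for HDAC2 over HDAC1 and from 0.839 up for HDAC9 over HDAC4.

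Class IIa, whose members hold corepressors at MEF2 sites, fell in 3 of 4 genes at both stimulation states, and HDAC9 rose. HDAC7, best known from thymocytes and endothelium, was at 11.7, 11.7 and 12.1 CPM in early unstimulated libraries. After early stimulation it was at 6.19, 6.54 and 8.36 CPM. HDAC7 in late libraries stood at 2.27, 2.65 and 2.28 CPM unstimulated and 4.18, 3.78 and 3.68 CPM stimulated. All 4 groups were separate, in the order early unstimulated, early stimulated, late stimulated, late unstimulated. The late difference of HDAC7 was -2.28 ± 0.27 unstimulated (adjusted p = 2.64e-07) and -0.88 ± 0.25 stimulated (adjusted p = 0.00659). The late unstimulated values rest on 9, 20 and 15 counts, and the exact Poisson interval of the lowest of these libraries runs from 1.04 to 4.31 CPM (95%, counting error only). With all libraries thinned to 3910680 counts, the stimulated difference did not pass (-0.60, adjusted p = 0.153).

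HDAC5 was at 106.8, 114 and 102 CPM at 4.5 months without stimulation and 113, 105 and 91.9 with it, then 58.3, 66.1 and 54.3 at 19 months without and 49.6, 69.3 and 67.9 CPM with it. HDAC5 was well separated, with its highest late library 22.6 CPM under its lowest early one. The difference was -0.85 ± 0.14 unstimulated (adjusted p = 3.07e-05) and -0.73 ± 0.14 stimulated (adjusted p = 0.000215). HDAC4 was at 20.3, 20.7 and 13.1 CPM at 4.5 months without stimulation and 24.3, 17.1 and 17.2 with it, then 9.08, 9.54 and 8.50 at 19 months without and 9.40, 10.7 and 10.4 CPM with it. Late libraries of HDAC4 varied little and all lay below the early ones. HDAC4 had a late difference of -0.99 ± 0.22 unstimulated (adjusted p = 0.000717) and -0.91 ± 0.21 stimulated (adjusted p = 0.00126).

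HDAC9, also a MEF2 corepressor, went the other way. Its level was 4.24, 4.37 and 4.01 CPM at 4.5 months without stimulation and 2.72, 6.11 and 5.55 with it, then 12.9, 8.09 and 7.13 at 19 months without and 12.8, 13.8 and 10.5 CPM with it. Every late library was above every early one. HDAC9 was higher late by 1.12 ± 0.28 unstimulated (adjusted p = 0.00265) and 1.27 ± 0.27 stimulated (adjusted p = 0.000572). Counts of HDAC9 were 0.112 to 0.358 of those of HDAC4 early and 0.839 to 1.42 of them late. Low-abundance genes leaned higher in late libraries: of 4914 tested genes with a mean of 1 to 10 CPM, 925 were higher and 535 lower late in unstimulated cells, and 916 and 377 in stimulated cells. In the band of 10 to 100 CPM, which holds HDAC1 to HDAC6, the lean was the other way, with 756 higher and 1305 lower of 4640 unstimulated, and 749 and 1279 stimulated. HDAC9 lies in the lower band, and so do HDAC7, which fell, and HDAC10. The part of these leans in the changes of the members was not tested.

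The names of HDAC4 and HDAC9 need care. In the authors' deposited tables the identifier ENSMMUG00000011170 carries the symbol HDAC4 but the description histone deacetylase 9, and it lies on chromosome 3 from 94169544 to 94848420 (build Mmul_8.0.1). The identifier ENSMMUG00000006077 is described there as histone deacetylase 4, has no symbol, and lies on chromosome 12 from 121780335 to 122085898. The Ensembl name table used here gives HDAC9 for the former and HDAC4 for the latter, which match the descriptions, and these names are used throughout. Read by symbol alone, the authors' deposited tables would list HDAC4 as higher late (1.15 unstimulated, 1.30 stimulated), whereas the gene described as HDAC4 is lower in them (-0.98 and -0.92).

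Class IIb showed less. HDAC6 was at 16.7, 14.0 and 14.3 CPM at 4.5 months without stimulation and 28.2, 20.2 and 14.3 with it, then 9.58, 14.3 and 9.41 at 19 months without and 10.1, 13.2 and 13.1 CPM with it. Unstimulated groups overlapped and did not pass (-0.40 ± 0.23, adjusted p = 0.173). Stimulated late libraries were lower (-0.74 ± 0.22, adjusted p = 0.0109), a call lost without late stimulated replicate 1 (adjusted p = 0.0568). HDAC10 had 4 to 27 counts per library, or 0.607 to 2.78 CPM, and its groups overlapped in every comparison. Its late differences of -0.45 ± 0.54 and -0.88 ± 0.54 did not pass (adjusted p = 0.542 and 0.204), and the unstimulated value ran from -1.07 without late unstimulated replicate 2 to -0.08 without replicate 3 of that group.

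**Figure D3:**
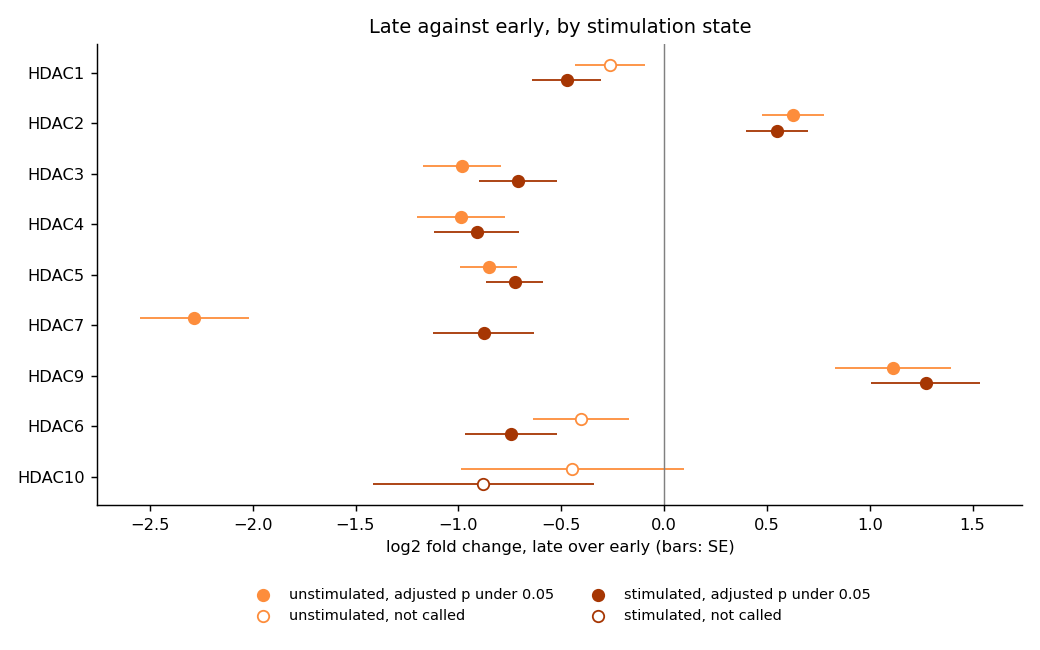
Log2 fold change of late over early for each gene (horizontal axis, bars SE), in unstimulated and stimulated cells, with filled points where the adjusted p was under 0.05. HDAC2 and HDAC9 lie to the right of 0 in both states, and HDAC7 reaches -2.28 in unstimulated cells.

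Summed over class IIa, the level went from 142 ± 10.2 CPM (SD, n = 3) to 80.4 ± 7.32 CPM between the times in unstimulated cells, and from 135 ± 11.8 to 88.7 ± 11.3 CPM in stimulated ones. The class I sum was 125 ± 13.0 and 145 ± 12.4 CPM unstimulated, and 133 ± 7.50 and 149 ± 12.8 CPM stimulated. Late class IIa sums (72.2 to 97.6 CPM) lay below all early ones (123 to 151 CPM), whereas class I sums overlapped. The class IIa sum is mostly HDAC5 (108 of 142 CPM early and 59.6 of 80.4 CPM late, unstimulated), is not corrected for length, and contains the rise of HDAC9. The sums were chosen after values were seen. Without early stimulated replicate 1, the late differences in stimulated cells were smaller for HDAC2 (0.37), HDAC3 (-0.51) and HDAC6 (-0.53), and each still passed (adjusted p = 0.00757, 0.0153 and 0.0375). The call of HDAC1 was the only member call of that comparison lost without this library.

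**Figure D4:**
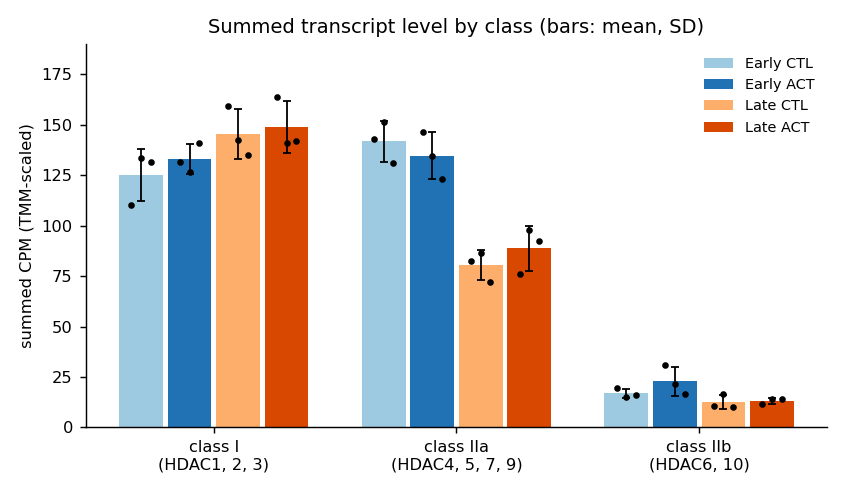
Summed TMM-scaled CPM of the class I, class IIa and class IIb genes (vertical axis from 0), with bars for the mean of 3 libraries, error bars for the SD and points for libraries. The class IIa sum is lower in both late groups, at 80.4 and 88.7 CPM.

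The authors' deposited tables, which list genes with an adjusted p under 0.05, hold HDAC2, HDAC3, HDAC4, HDAC5 and HDAC9 in both comparisons, HDAC7 in the unstimulated and HDAC6 in the stimulated one. Their log2 fold changes of late over early for unstimulated cells are 0.64 for HDAC2, -0.97 for HDAC3, -0.84 for HDAC5 and -2.28 for HDAC7. Positions on Mmul_8.0.1 in the authors' deposited tables put HDAC2 (ENSMMUG00000008937) on chromosome 4 from 153951348 to 153982430 and HDAC3 (ENSMMUG00000012588) on chromosome 6 from 139395224 to 139411932. HDAC5 (ENSMMUG00000006806) is placed by the authors' deposited tables on chromosome 16 from 49942169 to 49982644, HDAC7 (ENSMMUG00000021655) on chromosome 11 from 45998285 to 46035887, and HDAC6 (ENSMMUG00000016465) on chromosome X from 49044093 to 49069397. HDAC1 (ENSMMUG00000009948) and HDAC10 (ENSMMUG00000014101) are not listed in them.

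After 8 h of LPS with interferon-gamma, HDAC7 was the only member that passed, and at 4.5 months alone. There 1 of 9 members passed, where 7.23% of genes tested passed (4.57% higher, 2.66% lower). The early change of HDAC7, -0.73 ± 0.22 (adjusted p = 0.0452), took it from 11.8 ± 0.24 to 7.03 ± 1.17 CPM (SD, n = 3 each), with no overlap. The call was lost in 14 of 20 alternatives (adjusted p from 0.0506 to 0.169), the replicate block (0.0657) and the removal of any 1 early or late stimulated library among them. The other 8 members did not pass. HDAC1 (0.31 ± 0.17, adjusted p = 0.287) and HDAC6 (0.44 ± 0.22, adjusted p = 0.244) were above 0, and HDAC3 below it (-0.26 ± 0.18, adjusted p = 0.421). HDAC2 (0.11), HDAC4 (0.09), HDAC5 (-0.06), HDAC9 (0.28) and HDAC10 (0.08) had adjusted p from 0.623 to 0.954. Stimulated and unstimulated libraries were apart for 2 members, HDAC7 and HDAC1, where 25.7% of genes tested were apart. Without early stimulated replicate 1, HDAC3 passed at -0.48 ± 0.17 (adjusted p = 0.0437) and HDAC7 did not (-0.67, adjusted p = 0.0713). Without it HDAC1 was at 0.13, HDAC6 at 0.21, HDAC2 at 0.26 and HDAC9 at 0.47, none of which passed. That library held the highest levels of its group for HDAC1, HDAC3, HDAC4, HDAC5, HDAC6 and HDAC10 and the lowest for HDAC2, HDAC7 and HDAC9. The whole table called 855 genes, 464 to 485 without 1 of the early unstimulated libraries and 1554 without early stimulated replicate 1.

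At 19 months no member passed, and neither did any of the 11826 genes, a background of 0.0%. At an unadjusted p under 0.05 there were 527 genes, among them 1 member, and DESeq2 called 15 genes and no member. HDAC7 was higher in all 3 late stimulated than in all 3 late unstimulated libraries (0.67 ± 0.29, unadjusted p = 0.0294, adjusted p = 0.998), and was the only member with groups apart, where 11.0% of genes tested were. HDAC9 (0.44 ± 0.26), HDAC4 (0.17), HDAC6 (0.11), HDAC1 (0.10), HDAC5 (0.06), HDAC2 (0.03), HDAC3 (0.01) and HDAC10 (-0.35 ± 0.58) all had an adjusted p of 0.998.

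The difference between the late and early responses did not pass for any of the 9 members, where 1.41% of genes tested passed (0.186% higher, 1.23% lower) and 1280 genes and 1 member had an unadjusted p under 0.05. HDAC7 came closest, with a difference of 1.41 ± 0.37 (unadjusted p = 0.000767, adjusted p = 0.0514, edgeR quasi-likelihood test): stimulated libraries were all below unstimulated ones early and all above them late, as in 0.93% of genes tested. This difference passed with DESeq2 (1.40, adjusted p = 0.0329) and without early stimulated replicate 1 (1.34, adjusted p = 0.0379). The whole table called 167 genes. Leaving out early unstimulated replicate 1 or 2 gave 100 and 95 genes, late stimulated replicate 1 or 3 gave 106 and 104, and early stimulated replicate 1 gave 546. For the other 8 members the differences ran from -0.43 ± 0.77 (HDAC10) to 0.27 ± 0.27 (HDAC3), with adjusted p from 0.769 (HDAC6) to 0.96 (HDAC4).

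**Figure D5:**
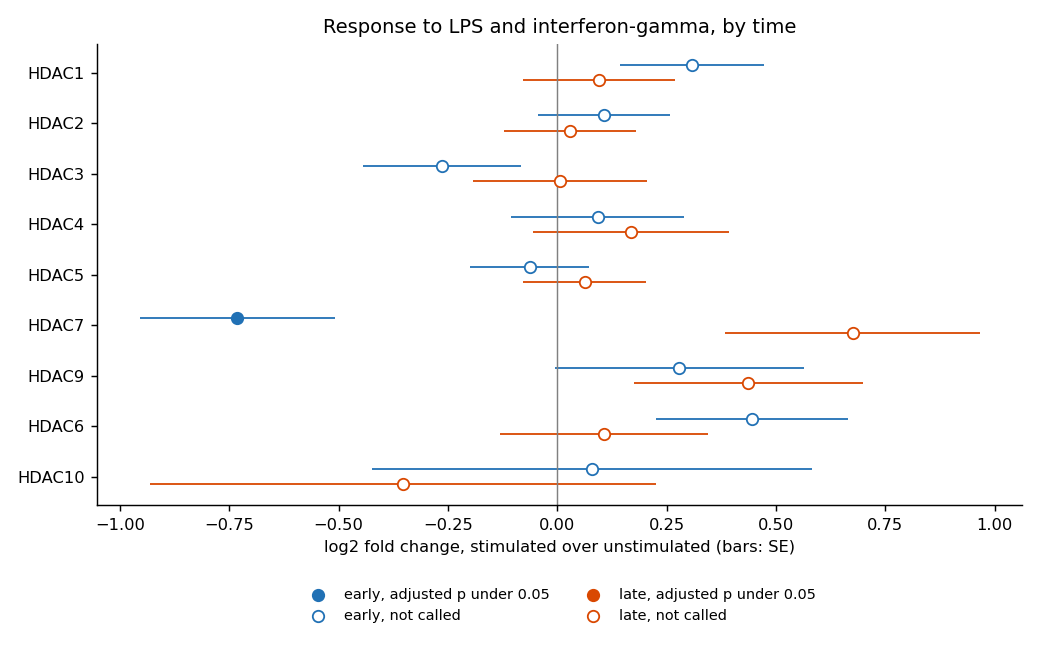
Log2 fold change of stimulated over unstimulated cells for each gene (horizontal axis, bars SE), early and late, with filled points where the adjusted p was under 0.05. HDAC7 is the only filled point, at -0.73 early, and lies at 0.67 late.

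The genes that HDAC2 is known to act with at Il6 were measured in the same libraries. TET2 was present in all of them (244 to 343 CPM early, 409 to 442 CPM late) and was higher late unstimulated (0.73 ± 0.11, adjusted p = 8.78e-06) and stimulated (0.40 ± 0.11, adjusted p = 0.0044), the directions of HDAC2. Counts per gene do not tell edited from unedited TET2 transcripts, so they do not measure working TET2. IL6 was higher late in unstimulated cells (1.37 ± 0.12, 31.3 ± 2.50 to 80.9 ± 3.21 CPM) and lower late in stimulated ones (-0.77 ± 0.12, 205 ± 8.49 to 120.4 ± 11.9 CPM), whereas HDAC2 was higher late in both. NFKBIZ rose on early stimulation (1.08 ± 0.15) and was higher late unstimulated (0.72 ± 0.15, adjusted p = 0.000591), a call lost when only the compared groups were fitted (adjusted p = 0.0781). NFKBIZ did not pass late in stimulated cells (-0.14, adjusted p = 0.486), and neither did TET3, a relative of TET2, in either state (0.31 unstimulated, 0.05 stimulated), although 3 alternatives called it unstimulated (adjusted p from 0.0313). On early stimulation TET2 (0.38 ± 0.11, adjusted p = 0.0306), TET3 (0.58 ± 0.16, adjusted p = 0.0204) and IL6 (2.72 ± 0.13) rose as well, the call of TET2 being lost in 11 alternatives (adjusted p up to 0.139) and that of TET3 in 4 (up to 0.159). On late stimulation no gene of the 4 passed, with IL6 at 0.57 (adjusted p = 0.111), TET3 at 0.32, NFKBIZ at 0.22 and TET2 at 0.05. IL6 did pass there in 3 alternatives. These were the fit of only the groups compared (adjusted p = 0.0117), DESeq2 (0.000446) and the fit without early stimulated replicate 1 (0.000182). The difference of the responses passed for IL6 (-2.14 ± 0.17) and for NFKBIZ (-0.86 ± 0.22, adjusted p = 0.0426), the call of NFKBIZ being lost in 12 alternatives (adjusted p up to 0.21). It did not pass for TET2 (-0.32) or TET3 (-0.26), although TET2 passed without early stimulated replicate 1 (-0.41, adjusted p = 0.0114).

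Corepressor subunits carry HDAC1 and HDAC2 to chromatin. Their counts stand beside the 20.9% of all genes tested that were higher and 19.8% lower late in unstimulated cells, and 19.1% and 19.7% in stimulated cells. Of 14 tested SIN3 genes 4 were higher and 4 lower late in unstimulated cells, and the same numbers in stimulated cells. ARID4B, a SIN3 subunit, rose by 0.53 ± 0.12 and 0.56 ± 0.12. SAP18 rose by 0.44 and BRMS1 fell by 0.85 in unstimulated cells, and SAP130 (-1.18 ± 0.28) and ING1 (-0.74 ± 0.20) fell in stimulated cells. Of 11 NuRD genes 1 was higher and 5 lower unstimulated, and 1 higher and 2 lower stimulated. MBD3, which lacks strong binding to methylated DNA unlike its relative MBD2, was lower in both (-1.06 ± 0.19, 28.4 ± 2.81 to 13.4 ± 0.96 CPM, and -0.70 ± 0.18). GATAD2B (-0.74) and MTA2 (-0.75) fell in unstimulated cells. RBBP4 rose by 0.45 and GATAD2A fell by 0.36 in stimulated cells, the call of MTA2 being lost without late unstimulated replicate 3 and that of GATAD2A in 6 alternatives. Of 6 CoREST and MiDAC genes 1 was lower unstimulated and 2 stimulated, with none higher. MIDEAS, the scaffold of MiDAC, fell by 1.31 ± 0.18 (140 ± 17.6 to 56.5 ± 19.5 CPM) and by 0.69 ± 0.18. The lysine demethylase gene KDM1A was lower in stimulated cells (-0.41 ± 0.11). Of 5 tested genes of the NCoR list 1 was lower unstimulated and 2 stimulated, with none higher. TBL1X, a subunit of the NCoR complex that holds HDAC3, fell in stimulated cells (-0.63 ± 0.24, adjusted p = 0.0441), a call lost in 10 alternatives.

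Among the partners and kinases of class IIa, 3 of 18 tested genes were higher and 5 lower late in unstimulated cells, and 5 and 5 in stimulated cells, where 40.7% and 38.8% of all genes tested passed in either direction. MEF2D, a MEF2 factor bound by class IIa proteins, was lower in both (-0.66 ± 0.14 and -0.79 ± 0.14). SIK1, a kinase that sends class IIa proteins out of the nucleus, was higher in both (0.90 ± 0.13, 69.1 ± 9.59 to 129 ± 15.2 CPM, and 0.60 ± 0.13). The kinase genes CAMK1D (-1.95 ± 0.47, unstimulated) and CAMK1 (-0.90 ± 0.25, stimulated) fell, CAMK1 not when thinned (adjusted p = 0.0731). The sirtuins use NAD in place of zinc, and of 6 tested deacetylase genes outside HDAC1 to HDAC10 1 was higher and 2 lower unstimulated, and 2 higher and 1 lower stimulated. SIRT1 rose in both states (0.74 ± 0.17, 44.7 ± 4.54 to 74.7 ± 9.32 CPM, and 0.80 ± 0.17), and SIRT2 fell in both (-0.45 ± 0.13 and -0.90 ± 0.13). SIRT7 fell in unstimulated cells (-0.57 ± 0.22, adjusted p = 0.0356), a call lost in 8 alternatives, and SIRT5 rose in stimulated cells (1.38 ± 0.53, adjusted p = 0.0417), a call also lost in 8. The unstimulated call of SIRT2 was lost with upper-quartile scaling (adjusted p = 0.0541). HDAC11, with 0 to 9 counts per library, was too low to be tested.

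Histone acetyltransferases, which add the marks, were higher in 1 and lower in 3 of 12 tested genes unstimulated, and higher in 2 and lower in 3 stimulated, beside the same 40.7% and 38.8% of all genes tested. These counts are near those shares. CREBBP was lower in both (-0.40 ± 0.12 and -0.42 ± 0.12), a call lost in unstimulated cells with upper-quartile scaling (adjusted p = 0.0702) and without late unstimulated replicate 2 (0.0578). Its paralog EP300 fell by 0.42 ± 0.10 and NCOA1 by 0.68 ± 0.15 in unstimulated cells. In stimulated cells KAT5 fell by 0.61 ± 0.13 and KAT6A rose by 0.50 ± 0.16, the latter a call lost without late stimulated replicate 2 or 3 (adjusted p = 0.0557 and 0.0543). Acetyl-lysine readers had 1 higher and 2 lower of 8 unstimulated, with BRD8 (-0.62 ± 0.15) and BRD1 (-0.42) lower and BPTF (0.48) higher in unstimulated cells. In stimulated cells 1 of the 8 readers was higher and 1 lower. The higher one was BRD3 (0.85 ± 0.30), its call being lost in 5 alternatives and the unstimulated call of BRD1 in 3. On early stimulation, 4 genes of these lists fell and 1 rose: ARID4A (-1.14 ± 0.25), RBBP4 (-0.42 ± 0.13), BRD3 (-1.33 ± 0.29) and BRD8 (-0.63 ± 0.15), against KDM1A (0.51 ± 0.11). The calls were 2 of 14 SIN3, 1 of 11 NuRD, 1 of 6 CoREST and MiDAC and 2 of 8 reader genes tested, and the other lists had none. Of all genes tested 7.23% passed there, 4.57% higher and 2.66% lower. RBBP4 belongs to both SIN3 and NuRD, and its call was lost in 10 alternatives. The call of BRD3 was lost without early stimulated replicate 3 (adjusted p = 0.0517), and that of BRD8 without early unstimulated replicate 2 (0.0543) and with only the groups compared (0.0538). The difference of the responses passed for 1 gene of these lists, ARID4A (1.48 ± 0.36, adjusted p = 0.0317), where 1.41% of all genes tested passed. For ARID4A 10 alternatives lost this call (adjusted p up to 0.139). The SIN3 and NuRD lists share RBBP4 and RBBP7, and no gene of these lists was called on stimulation at 19 months.

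The 2 members with the smallest p were HDAC7 and HDAC5. Across the 12 libraries and among 9665 other named genes, the log2 CPM of HDAC7 was most like that of NUAK2 (Pearson r = 0.98), EP300 (0.97) and NIN (0.97). HDAC5 was most like STAT6 (0.99), IKBKE (0.98) and SREBF1 (0.98). Among the members themselves the highest correlations were those of HDAC4 with HDAC5 (0.93) and of HDAC2 with HDAC9 (0.90), and the lowest was that of HDAC2 with HDAC4 (-0.89). All these genes share the libraries and their split by time, so the values describe that split and carry no test.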

How the data were processed

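The labels' protocols name RNAzol extraction, SMART-Seq v4 cDNA and Nextera XT libraries. The authors deposited raw counts per gene, and the submitters' processing notes name bcl2fastq and the build Mmul_8.0.1. Which aligner, counter and annotation were used is not stated in these sources. In the authors' deposited tables each late against early comparison has a log2 fold change with standard error, a score that is their ratio, a p-value with its adjusted p-value, and a mean normalized signal. The kit does not mark strand, so antisense reads cannot be told apart.

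Names came from the count table, an Ensembl name table and the authors' tables, for 15714 genes in all. The last 2 sources differed for 156 of 3927 identifiers. Counts of all 12 libraries (3910680 to 12972505 each) were fitted with edgeR 4.0.16 in R 4.3.3 (glmQLFit, robust, 1 coefficient per group), with TMM factors of 0.879 to 1.10 and filterByExpr, which kept 11826 genes and all 9 members. Standard errors are the size of the log2 fold change divided by the root of F. Benjamini-Hochberg adjustment covered every gene tested, and the threshold was 0.05. CPM use the total of tested genes times the TMM factor. This scaling replaced unscaled CPM after values had been seen. The 20 alternatives were other scalings, filters and fits, DESeq2 1.42.0, thinning and leaving out each library. No pair of libraries of a group agreed within counting noise. The scripts were tested on simulated data.

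The text names all members, TET2, TET3, NFKBIZ and IL6, up to 3 passing genes per companion list and comparison by smallest p, and the 3 genes most correlated with each of the 2 members of smallest p. Some genes that this rule picks are not reported here. Members and lists were chosen with earlier results of these data known.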

Additional observations from a re-analysis of the deposited data

Results flagged for a closer look

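HDAC7 had groups that separated in opposite directions at the 2 times: every early stimulated library lay below every early unstimulated one, and every late stimulated library above every late unstimulated one, a pattern that 0.93% of genes tested had. The change of HDAC7 on late stimulation did not pass (adjusted p = 0.998), and its call on early stimulation was lost in 14 of 20 alternatives. The difference of the log2 responses was 1.41 and did not pass after adjustment (adjusted p = 0.0514, edgeR quasi-likelihood test), with adjusted p from 0.0329 to 0.133 over 19 alternatives.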

How the results depend on the processing

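Of 45 member results 15 were called; 11 of these kept call and direction in all 20 alternatives, and none of the 15 reversed. The other 4 are HDAC1, HDAC6 and HDAC7 late in stimulated cells and HDAC7 on early stimulation. HDAC7, HDAC9 and HDAC10 rest on few counts. Where a value changed, the cause was not tested. Upper-quartile scaling moved the median of all genes from 0.02 to 0.15 unstimulated and from 0.05 to 0.15 stimulated.

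On early stimulation 0 members were called with upper-quartile factors, with no filter, with CPM of at least 1 in 3 libraries, and with only the groups compared, which called 503 genes. The replicate block also left 0 members there, with 727 genes, and 114 genes for the difference of responses. Libraries of the same number did not deviate together (correlations -0.086 to 0.097 over 12 pairs). With 3 libraries per group this cannot show that samples were unpaired, and the labels do not say what a number marks. On late stimulation 2 genes were called with upper-quartile factors, 5 with no filter, 10 with only the groups compared, 2 when thinned and 15 with DESeq2. DESeq2 called 312 genes and 1 member for the difference of responses.

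Leaving out 1 library gave 464 to 1554 genes and 0 to 1 members on early stimulation, 0 to 29 genes on late stimulation, and 95 to 546 genes and 0 to 1 members for the difference.

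Results that reversed had not been called. They were TET3 late in stimulated cells with no filter (-0.0002), HDAC3 on late stimulation with DESeq2 (-0.0023) and the HDAC4 difference when thinned (-0.1099). Leaving out 1 library gave -0.1104 to 0.1673 for TET3 late in stimulated cells. On early stimulation it gave -0.0658 to 0.2583 for HDAC2, -0.1038 to 0.212 for HDAC4, -0.1283 to 0.0174 for HDAC5 and -0.1349 to 0.4093 for HDAC10. On late stimulation it gave -0.0289 to 0.2052 for HDAC1, -0.0581 to 0.0821 for HDAC2, -0.0441 to 0.098 for HDAC3, -0.0191 to 0.2022 for HDAC5, -0.0179 to 0.3488 for HDAC6, -0.728 to 0.257 for HDAC10 and -0.0205 to 0.3739 for NFKBIZ. For the difference it gave -0.228 to 0.0955 for HDAC2, -0.0476 to 0.2682 for HDAC4, -0.032 to 0.4168 for HDAC9 and -0.8087 to 0.1824 for HDAC10.

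With CPM not scaled by TMM, an alternative chosen after seeing the data, HDAC1 and HDAC6 were also apart late in unstimulated cells (8 members in place of 6), HDAC6 overlapped late in stimulated cells (7 in place of 8), and on early stimulation HDAC5 was apart and HDAC1 was not.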
